A study of Mus musculus and Homo sapiens with 59 samples.

Results

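BxPC3 is an established human cell line from a pancreatic adenocarcinoma, and this account covers its response to digitonin, a plant detergent that binds membrane cholesterol and opens the plasma membrane. The libraries were chosen by the labels alone: 4 of the 59 libraries of a study on plasma membrane integrity, 2 of BxPC3 cells given digitonin at 40 µg/mL for 2 h and 2 of untreated BxPC3 cells (labelled NT). Both groups carried no construct and were kept in DMEM, and the messenger RNA was poly(A)-selected. HT29, a human colorectal carcinoma line given the same dose for the same time, with 2 treated and 2 untreated libraries, serves as the comparison. Each line is a single established line, and the labels do not say whether the libraries of a group came from separate cultures, so that the p-values below reflect how much these particular libraries vary, which may be technical variation.

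A breach of the plasma membrane lets calcium enter and potassium leave, and cells are known to answer it within minutes by calcium-dependent repair and by stress kinases. These kinases and calcium act on immediate early genes, which encode short-lived transcription factors (the EGR, FOS, JUN and NR4A families) and need no new protein for their induction. Their targets include phosphatases and RNA-binding proteins that end the response, and NF-kB, which is held in the cytoplasm by inhibitor proteins, turns on chemokine genes and the genes of its own inhibitors. Cholesterol, the lipid that digitonin binds, is sensed in the endoplasmic reticulum, where low sterol releases the factor that drives cholesterol synthesis and uptake genes.

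Levels are in TPM, a gene's share of its library corrected for transcript length and scaled to the same total in every library. Fold changes are differences of log2(TPM + 1), digitonin minus untreated, a scale on which low genes appear to change less than they do. A number alone in parentheses beside a gene gives this log2 fold change. Where the lines are compared, it is instead the BxPC3 minus the HT29 log2 fold change, unless it follows levels or a stated rise or fall. A gene was tested where at least 2 of the 4 BxPC3 libraries held 1 TPM or more, and "rose" or "fell" means that it passed limma's test at a Benjamini-Hochberg adjusted p under 0.05. The table has 22192 rows and TPM keeps no sequencing depth, so the spread between libraries is the only measure of precision. Log2 levels of the 2 untreated libraries correlated across genes at r = 0.993 and those of the 2 treated libraries at r = 0.99, whereas treated and untreated libraries correlated at 0.851 to 0.853 (genes are not independent replicates). No library stood apart from its partner, small RNA and ribosomal RNA rows took 23.4% to 25.1% of TPM in all 4, and 12816 to 13099 genes reached 1 TPM.

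The libraries carried the marks of the line. The keratin gene KRT19 was at 1591 and 1709 TPM in untreated cells, KRT8 at 1395 and 1451 TPM and the adhesion genes EPCAM and CDH1 at 129.6 and 132 and at 145 and 145 TPM. Basal and squamous markers were also abundant, with KRT5 at 2909 and 2946 TPM, KRT17 at 5429.9 and 5824 TPM and TP63 at 150.2 and 147 TPM. SMAD4 and CDKN2A, which BxPC3 is known to have lost, were at most 0.023 TPM and listed at 0 in all 4 libraries, against 1.79 and 1.97 TPM and 198 and 195 TPM in untreated HT29. Of the duct markers, CFTR was below 0.1 TPM in every BxPC3 library. Markers of acinar, islet, stromal, immune, endothelial and intestinal cells were low, but several moved with treatment. The 7 stromal markers summed to 3.5 and 3.56 TPM untreated and 9.83 and 10.7 TPM with digitonin, nearly all of the gain being the collagen gene COL1A1 (1.82), while COL1A2 and PDGFRB were listed at 0 throughout. The 7 immune markers summed to 20.01 and 21.5 TPM and then 30.96 and 28.4 TPM, mostly CD68 and CD14 (1.43), with PTPRC below 1 TPM in every library. The 7 intestinal markers summed to 1.18 and 1.12 TPM and then 4.66 and 6.97 TPM through LGALS4 (2.47), which was at 613 and 571 TPM in HT29. CDX1 and FABP1 were listed at 0 in all 4 libraries, as was CDKN2A, which HT29 held at 198 and 195 TPM. The part of other cells in the results below was otherwise not tested.

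Digitonin changed most of the messenger RNA of these cells. Of 13566 genes tested, 10932 passed (80.6%): 3211 rose (23.7%) and 7721 fell (56.9%). The treated and untreated libraries did not overlap for 12129 genes (89.4%), 3746 of them higher (27.6%) and 8383 lower (61.8%). A lack of overlap in a gene named below is therefore what most tested genes show. A gene under 1 TPM in both untreated libraries enters the test only through the treated ones and cannot overlap. Changes of at least 2-fold numbered 1404 upward (10.3%) and 2802 downward (20.7%), and 5611 genes passed a test for a change beyond 1.5-fold (limma treat, 41.4%). The split between rises and falls depended on the scaling: the median log2 fold change of all genes was -0.37 (quartiles -0.895 and 0.203), and once each library had been centred on its median 5606 rose (41.3%) and 5001 fell (36.9%). Quantile normalization gave 4565 rises (33.7%) and 6104 falls (45.0%). A change of at least 2-fold that passed on all 3 scalings was found for 1298 genes upward (9.57%) and 1278 downward (9.42%). In bulk RNA of this kind fewer cells of a type and less RNA per cell cannot be told apart, and TPM show only each gene's share. Because 4 of 5 genes pass, the lists below are read by their size and by the counts on the other scalings, beside the median of all genes.

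**Figure D1:**
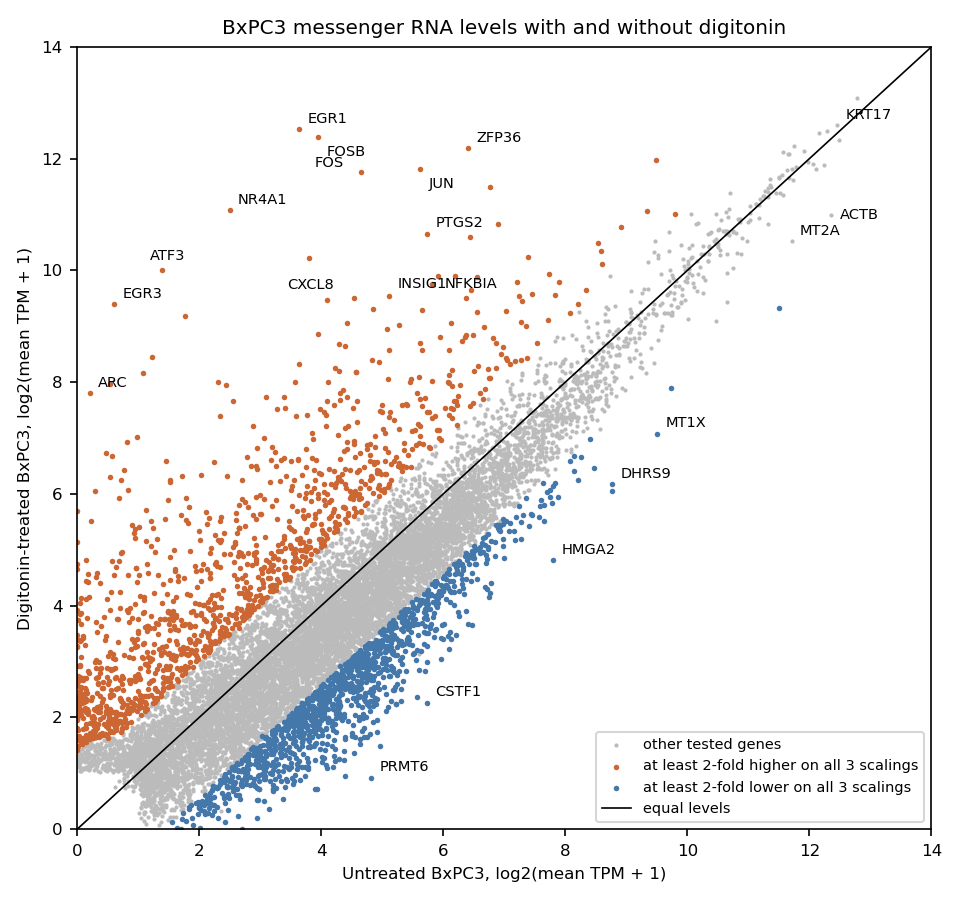
Mean level of each tested gene in the 2 untreated (horizontal axis) and the 2 digitonin-treated BxPC3 libraries (vertical axis), both as log2(mean TPM + 1), with small RNA rows left out. Orange and blue points are genes at least 2-fold higher or lower on all 3 scalings; EGR1, FOSB, FOS, JUN and ZFP36 rose to levels near those of the keratin gene KRT17, and most genes at moderate levels lie below the line of equal levels.

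Immediate early transcription factors gave the largest rises. EGR1, a zinc finger factor that serum, stress and calcium induce, was at 11.3 and 11.6 TPM untreated and 5962 and 5858 TPM with digitonin, 516-fold by the ratio of means (log2 fold change 8.89, SE 0.0307, limma, adjusted p = 7.28e-11). The AP-1 subunit FOSB was at 14.4 and 14.4 TPM untreated and 5412 and 5337 TPM with digitonin (8.45, SE 0.032, adjusted p = 7.28e-11), and its relative FOS at 23.7 and 24.4 TPM untreated and 3470.3 and 3508 TPM with digitonin (7.12, SE 0.038, adjusted p = 4.79e-10). Both treated libraries stood far above both untreated ones in each case, with a spread between partners of a few percent. JUN, the partner of FOS in AP-1, was at 45.9 and 50.7 TPM untreated and 3501 and 3695 TPM with digitonin (6.19). ATF3, a repressor of the same leucine zipper class, was at 1.37 and 1.87 TPM untreated and 1004 and 1043 TPM with digitonin (8.62). The orphan nuclear receptor NR4A1 was at 4.96 and 4.32 TPM untreated and 2210.1 and 2125 TPM with digitonin (8.59). These 3 genes were also without overlap between groups.

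Of the 33 immediate early factors listed, all were tested, 32 rose, 0 fell and 1 did not pass. Their median log2 fold change was 4.93 against -0.37 for all genes, and all 33 were higher after median centring and after quantile normalization. In 6 of the 33 both untreated libraries were under 1 TPM, so that these entered the test through the treated libraries. Together the 33 genes summed to 1719 and 1774 TPM untreated and to 33588 and 33509 TPM with digitonin. All 13 genes of the sublist named for EGR, FOS and JUN, which also holds other factors, rose. They included EGR3 (8.79), EGR2 (7.43) and EGR4 (6.13), which were under 1 TPM untreated. JUND, an AP-1 subunit often described as constitutive, was at 14.5 and 14.2 TPM untreated and 473 and 460.4 TPM with digitonin (4.93). FOSL1 was already abundant in untreated cells and was at 637 and 661 TPM untreated and 2187 and 2079 TPM with digitonin (1.71), with no overlap. The receptor NR4A2 (7.24) and the synaptic immediate early gene ARC (7.61, from 0.185 and 0.113 to 223 and 224 TPM) rose as well. IER3, a short-lived survival protein, was at 112 and 123 TPM untreated and 1789 and 1851 TPM with digitonin (3.94). All 8 Kruppel-like factors rose, KLF2 (7.102) most, then KLF4 (5.39), KLF11 (5.13) and KLF6 (4.69). MYC was the exception, at 171 and 175 TPM untreated and 178 and 174 TPM with digitonin (log2 fold change 0.02, adjusted p = 0.625, and 0.45 with adjusted p = 7.37e-05 after median centring).

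Genes that end such a response rose with it. ZFP36, which binds AU-rich elements of cytokine messages and speeds their decay, was at 82.9 and 84.7 TPM untreated and 4849 and 4532 TPM with digitonin (5.79, SE 0.0506, adjusted p = 2.61e-09). All 5 mRNA decay factors rose on each scaling, and the endonuclease gene ZC3H12A was at 18.5 and 18.8 TPM untreated and 292 and 294 TPM with digitonin (3.903). DUSP1, a nuclear phosphatase of stress kinases, was at 12.7 and 13.02 TPM untreated and 1197 and 1184 TPM with digitonin (6.43, SE 0.101, adjusted p = 2.69e-08). In all 3 the treated libraries were above the untreated ones. The 10 dual specificity phosphatases, which remove phosphate from ERK, p38 and JNK, all rose on each scaling, with DUSP2 (5.52), DUSP10 (3.51), DUSP5 (3.08) and DUSP8 (3.06) after DUSP1. DUSP6, the phosphatase of cytoplasmic ERK, was at 83.9 and 87.3 TPM untreated and 185 and 196 TPM with digitonin (1.15). Of the 10 other ERK feedback genes, 8 rose, 2 fell and 0 did not pass (8 up and 1 down with median centring, 8 and 2 with quantile normalization). ERRFI1, an inhibitor of the EGF receptor, was at 36.8 and 38.6 TPM untreated and 509.6 and 531 TPM with digitonin (3.75). SPRY4 (3.03) and SPRY2 (2.399) rose, and SPRED1, which recruits a brake on RAS, was at 12.2 and 12.6 TPM untreated and 4.32 and 4.55 TPM with digitonin (-1.302). GEM, a small GTPase that restrains voltage-gated calcium channels, was among the 15 largest rises at 2.42 and 2.35 TPM untreated and 562 and 599 TPM with digitonin (7.42).

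Ligands of the EGF receptor moved apart. HBEGF was at 70.7 and 72.9 TPM untreated and 944 and 965 TPM with digitonin (3.71, SE 0.0663, adjusted p = 4.10e-08) and EREG at 79.6 and 82.9 TPM untreated and 430.4 and 469 TPM with digitonin (2.45). TGFA was at 60.1 and 59.6 TPM untreated and 26.7 and 30.5 TPM with digitonin (-1.04). The first 2 were therefore higher and TGFA lower in both treated libraries. Of 5 ligands tested 3 rose and 2 fell, or 3 and 1 once centred on the median and 2 and 2 with quantile normalization, and the direction of the receptors EGFR and ERBB2 depended on the scaling.

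Genes of the calcium, NFAT and CREB list rose for the most part. PTGS2, the inducible cyclooxygenase that makes prostaglandin precursors, was at 52.9 and 51.9 TPM untreated and 1561 and 1676 TPM with digitonin (4.92, SE 0.0483, adjusted p = 4.59e-09). Of 14 tested genes (of 16 listed), 12 rose, 1 fell and 1 did not pass (14 up and 0 down with median centring, 13 and 0 with quantile normalization), and the median was 1.93. The clock gene PER1 was at 2.74 and 2.34 TPM untreated and 53.8 and 53.2 TPM with digitonin (3.95). CITED2, a co-regulator of hypoxia factors, was at 17.6 and 19.9 TPM untreated and 206 and 204 TPM with digitonin (3.39), and TRIB1 (2.97), RGS16 (2.84) and NFATC1 (2.78) followed. RCAN1, an inhibitor of calcineurin and a standard NFAT target, was at 8.43 and 9.19 TPM untreated and 16.2 and 14.2 TPM with digitonin (0.72), a smaller rise than most of the list.

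Among chemokines, CXCL8, CXCL2, CXCL1 and CXCL3, which attract neutrophils, rose, and CXCL10 fell. CXCL8 was at 22.1 and 22.4 TPM untreated and 718 and 739 TPM with digitonin, 32.7-fold (4.97, SE 0.0425, adjusted p = 2.58e-09). CXCL2 was at 3.11 and 5.01 TPM untreated and 164 and 168 TPM with digitonin (5.07, SE 0.343, adjusted p = 8.65e-06) and CXCL1 at 12.8 and 12.4 TPM untreated and 171 and 169 TPM with digitonin (3.65). In all 3 the treated libraries were above the untreated ones, and the untreated libraries of CXCL2 differed more from each other than those of CXCL8. CXCL3 was at 1.2 and 1.43 TPM untreated and 44.3 and 45.2 TPM with digitonin (4.31). CCL20, which attracts dendritic and Th17 cells, was at 13.8 and 15.5 TPM untreated and 46.9 and 54.03 TPM with digitonin (1.71). CXCL10, an interferon-induced attractant of T cells, was at 9.64 and 11.3 TPM untreated and 3.79 and 4.22 TPM with digitonin (-1.196). CCL5 (-0.67), CXCL16 (-0.505) and the neutrophil attractant CXCL5 (-0.45) fell too, though none of the 3 passed after median centring, and CXCL11 at 15.9 and 17.1 and 12.4 and 15.6 TPM did not pass.

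Cytokine genes moved in both directions. IL11, of the gp130 family, was at 1.73 and 1.99 TPM untreated and 75.9 and 73.6 TPM with digitonin (4.73). IL6 was at 3.43 and 2.26 TPM untreated and 24.5 and 22.7 TPM with digitonin (2.69) and LIF, of the same family, at 13.5 and 14.1 TPM untreated and 70.8 and 65.1 TPM with digitonin (2.22). Each was without overlap between groups. TNF (2.57, to 5.6 and 5.07 TPM), CSF3 (2.57, to 5.48 and 5.55 TPM) and CSF2 (2.398, to 10.8 and 7.58 TPM) were under 1 TPM in both untreated libraries. The alarmin IL1A was at 49.3 and 47.3 TPM untreated and 126 and 134 TPM with digitonin (1.41). IL33, another alarmin, was at 26.1 and 24.96 TPM untreated and 6.11 and 7.38 TPM with digitonin (-1.78), and TSLP at 17.1 and 16.1 TPM untreated and 6.74 and 6.14 TPM with digitonin (-1.24). These last 2 fell on each scaling. Of the 26 chemokine and cytokine genes tested (of 30 listed), 15 rose, 9 fell and 2 did not pass (18 up and 3 down with median centring, 16 and 4 with quantile normalization), and the median was 1.56. In 4 of the 26 both untreated libraries were under 1 TPM, so these entered the test through the treated libraries.

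Inhibitors of NF-kB rose more than its subunits by value. NFKBIA, which holds NF-kB in the cytoplasm, was at 53.6 and 56.6 TPM untreated and 871 and 864 TPM with digitonin (3.95, SE 0.0597, adjusted p = 2.33e-08), and the ubiquitin-editing enzyme TNFAIP3 at 27.03 and 27.6 TPM untreated and 331 and 341 TPM with digitonin (3.57). Both treated libraries were above both untreated ones in each. Of 9 inhibitors and feedback genes tested 7 rose, with a median of 2.33, and of 8 subunits and adaptors 7 rose, with a median of 0.77; no test compared the 2 sets. NFKBIZ (2.69), BCL3 (2.61) and CYLD (2.33) were among the former, and BIRC3 (2.87), REL (2.31), NFKB2 (1.901) and RELA (0.32) among the latter. Of 8 other targets, CD83 (4.14) and the mitochondrial superoxide dismutase SOD2 (3.13, from 82.7 and 81.4 to 729 and 722 TPM) were highest. IRF1, a target of both NF-kB and interferon, was at 40.05 and 41.5 TPM untreated and 21.3 and 20.01 TPM with digitonin (-0.95). In the whole list of 25 tested genes, 20 rose, 3 fell and 2 did not pass (23 up and 1 down with median centring, 20 and 1 with quantile normalization).

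**Figure D2:**
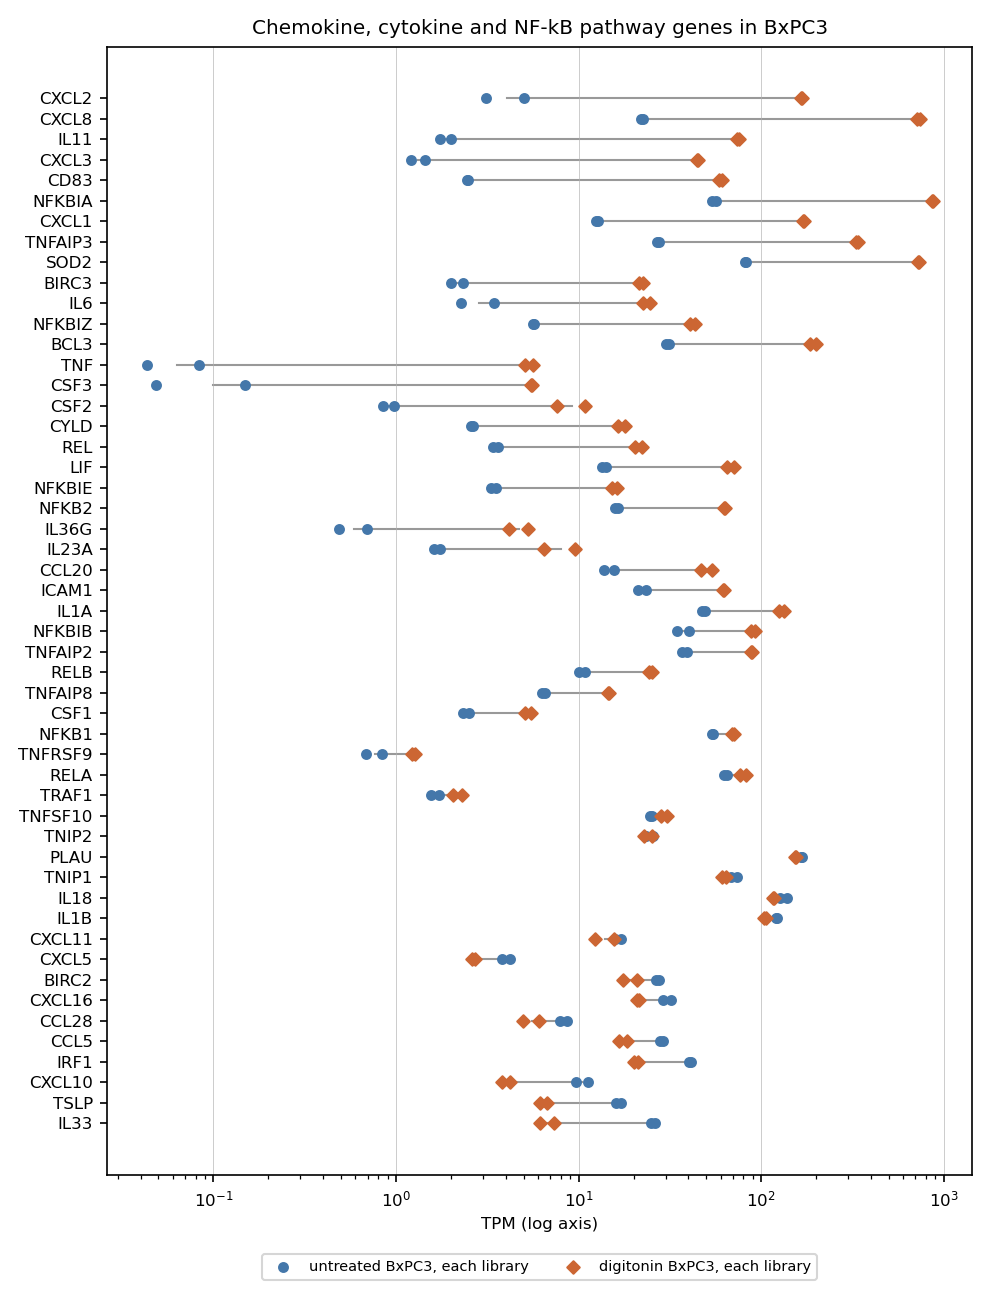
Level of each tested chemokine, cytokine and NF-kB pathway gene in each BxPC3 library, in TPM on a log axis, ordered by log2 fold change. Circles are untreated and diamonds digitonin libraries, and the line joins the group means; CXCL8, SOD2 and NFKBIA reach the highest treated levels, while IL33, TSLP and CXCL10 lie at the bottom with lower treated levels.

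Genes that interferon induces went down. OAS2, a sensor of double-stranded RNA, was at 37.8 and 35.8 TPM untreated and 13.9 and 14.2 TPM with digitonin (-1.33), IFIT3 at 36.2 and 37.5 TPM untreated and 15.5 and 17.99 TPM with digitonin (-1.097) and MX1 at 10.3 and 12.1 TPM untreated and 4.52 and 5.31 TPM with digitonin (-1.04). Their treated libraries were below the untreated ones without overlap. Of 13 tested genes (of 14 listed), 1 rose, 11 fell and 1 did not pass (2 up and 10 down with median centring, 1 and 11 with quantile normalization), and the median was -0.79. IFIT2 alone rose, at 14.2 and 12.99 TPM untreated and 39.998 and 46.1 TPM with digitonin (1.59). The antiviral sensors DDX58 (-0.89) and IFIH1 (-0.79) and the signal factor IRF9 (-0.93) fell. Among 12 genes of antigen presentation and immune checkpoints, 3 rose, 7 fell and 2 did not pass (5 up and 2 down with median centring, 4 and 4 with quantile normalization). The complement inhibitor CD55 was at 173 and 177 TPM untreated and 756 and 765 TPM with digitonin (2.12), whereas CD59, which blocks the complement pore itself, was at 161 and 159.5 TPM untreated and 79.3 and 83.3 TPM with digitonin (-0.97). PVR (-1.11), a ligand of natural killer cell receptors, fell.

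The effectors of the integrated stress response, in which phosphorylation of a translation factor favours the factor ATF4, rose together, while the amino acid genes of that program did not. PPP1R15A, which reverses this phosphorylation, was at 104 and 111 TPM untreated and 2818 and 2926 TPM with digitonin (4.73, SE 0.0466, adjusted p = 4.59e-09). ATF4 itself was at 208 and 214 TPM untreated and 953 and 993 TPM with digitonin (2.199) and the death-associated factor DDIT3 at 26.1 and 27.9 TPM untreated and 99.8 and 106 TPM with digitonin (1.89). Each was higher in both treated libraries. All 10 tested genes of ATF4 and its effectors rose on each scaling, among them SESN2 (2.83), CHAC1 (2.396) and DDIT4 (2.08). Of 8 genes of amino acid transport and charging, 1 rose, 6 fell and 1 did not pass (4 up and 4 down with median centring, 1 and 4 with quantile normalization). The transporter SLC7A5 was at 406 and 404 TPM untreated and 199 and 203 TPM with digitonin (-1.01), and the tRNA synthetase genes GARS (-0.98) and CARS (-0.73) fell.

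Of 14 genes of the unfolded protein response of the endoplasmic reticulum, 4 rose, 9 fell and 1 did not pass (6 up and 4 down with median centring, 5 and 8 with quantile normalization). HERPUD1, a factor of protein degradation, was at 52.6 and 49.4 TPM untreated and 209 and 211 TPM with digitonin (2.02) and the co-chaperone DNAJB9 at 10.6 and 10.9 TPM untreated and 36.6 and 41.9 TPM with digitonin (1.78). SEL1L was at 26.02 and 25.01 TPM untreated and 12.4 and 14.3 TPM with digitonin (-0.89). PDIA4 (-0.81) and MANF (-0.71) fell as well on all scalings, while the abundant chaperones HSPA5, CALR and HSP90B1 fell on the plain scale but not after median centring. Of the 14 genes of the heat shock list, 8 rose, 6 fell and 0 did not pass (8 up and 3 down with median centring, 7 and 6 with quantile normalization). DNAJB1, a partner of HSP70, was at 95.2 and 91.4 TPM untreated and 943 and 954 TPM with digitonin (3.33). The 2 HSP70 genes HSPA1A (1.66) and HSPA1B (1.99) rose, with the caution that they are nearly identical and share reads. BAG3 (1.200) and DNAJA1 (1.17) rose too, and the collagen chaperone SERPINH1 was at 264 and 275 TPM untreated and 95.3 and 95.5 TPM with digitonin (-1.49).

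Oxidant and metal response genes did not move as a block. HMOX1, the heme-degrading enzyme, was at 2.43 and 2.8 TPM untreated and 8.61 and 9.77 TPM with digitonin (1.495) and the autophagy receptor SQSTM1 at 232 and 239.9 TPM untreated and 879.5 and 889.7 TPM with digitonin (1.901). SRXN1, which repairs peroxiredoxins, was at 129 and 129 TPM untreated and 42.6 and 46.7 TPM with digitonin (-1.51). These 3 are all textbook targets of NRF2 and moved in both directions without overlap. GCLM (-1.06), TXNRD1 (-0.79) and NQO1 (-0.702) fell on each scaling. Of the 10 NRF2 and heme genes, 6 rose, 4 fell and 0 did not pass (6 up and 4 down with median centring, 6 and 4 with quantile normalization). TXNIP, the inhibitor of thioredoxin that also lowers glucose uptake, was at 93.9 and 87.8 TPM untreated and 33.2 and 33.5 TPM with digitonin (-1.42), and its relative ARRDC4 at 6.76 and 7.15 TPM untreated and 46.7 and 50.7 TPM with digitonin (2.64). These 2 genes, both of the alpha-arrestin family, moved in opposite directions. All 8 genes of the metallothionein and zinc list fell, 7 of them after median centring and after quantile normalization. MT1X, a small zinc- and copper-binding protein, was at 743 and 714 TPM untreated and 136 and 132 TPM with digitonin (-2.43). MT1E was at 841 and 849 TPM untreated and 251 and 221 TPM with digitonin (-1.84) and MT1G at 86.5 and 81.8 TPM untreated and 13.5 and 9.95 TPM with digitonin (-2.76). Metallothionein genes are similar to each other, so the split of reads between them is uncertain, but each of the 6 tested was lower.

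Sterol genes were led by a few strong rises. INSIG1, which retains the sterol-sensing machinery in the endoplasmic reticulum and is a target of it, was at 34.98 and 32.3 TPM untreated and 714 and 775 TPM with digitonin (4.43, SE 0.0523, adjusted p = 1.05e-08). Of the synthesis enzymes, IDI1 was at 48.4 and 50.1 TPM untreated and 181 and 198 TPM with digitonin (1.92). Both genes were above their untreated libraries. HMGCS1 (1.71), MSMO1 (1.07), and SQLE (0.92) also rose. Of all 23 genes of synthesis and uptake, 12 rose, 6 fell and 5 did not pass (20 up and 1 down with median centring, 17 and 4 with quantile normalization), and the median was 0.32, or 0.74 centred. INSIG2, a relative of INSIG1, was at 18.6 and 17.8 TPM untreated and 5.38 and 7.68 TPM with digitonin (-1.36). On the side of efflux, MYLIP, a ubiquitin ligase induced by liver X receptors, was at 6.85 and 7.06 TPM untreated and 60.1 and 63.8 TPM with digitonin (2.98), while the exporter gene ABCA1 was at 3.23 and 3.16 TPM untreated and 2.91 and 3.33 TPM with digitonin and did not pass (adjusted p = 0.756).

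Growth arrest and DNA damage genes of the p53 list rose strongly in a subset. CDKN1A, the cyclin-dependent kinase inhibitor p21, was at 59.4 and 58.7 TPM untreated and 984 and 925 TPM with digitonin (3.99), GADD45B at 20.5 and 20.5 TPM untreated and 519 and 545 TPM with digitonin (4.63) and the stress cytokine GDF15 at 16.99 and 20.2 TPM untreated and 409 and 416 TPM with digitonin (4.41). BBC3, a BH3-only killer protein, was at 0.609 and 0.692 TPM untreated and 78.1 and 72.8 TPM with digitonin (5.53), and PMAIP1, another, at 15.9 and 16.8 TPM untreated and 232 and 277 TPM with digitonin (3.87). Every one of these 5 was free of overlap, though for BBC3 the filter required it. GADD45G (5.702) was listed at 0 untreated and at 50.97 and 51.2 TPM with digitonin. MDM2, the ligase that degrades p53, was at 11.8 and 10.6 TPM untreated and 92.2 and 100.4 TPM with digitonin (2.99). Of 15 tested genes (of 16 listed), 11 rose, 2 fell and 2 did not pass (12 up and 1 down with median centring, 11 and 1 with quantile normalization). BBC3 and GADD45G, under 1 TPM untreated, entered the test only through the treated libraries. ZMAT3 (-0.68) fell, and FAS at 5.62 and 6.28 and 6.15 and 4.84 TPM did not pass. BxPC3 is known to carry a mutant p53, so the list is named for its usual regulator only.

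In the BCL2 family, BCL2L11, a BH3-only protein, was at 4.64 and 3.52 TPM untreated and 33.8 and 34.4 TPM with digitonin (2.798) and its short-lived opponent MCL1 at 150.4 and 149 TPM untreated and 705 and 781 TPM with digitonin (2.300). Of 12 genes, 2 rose, 8 fell and 2 did not pass (4 up and 3 down with median centring, 3 and 5 with quantile normalization), among them XIAP (-1.004), BAK1 (-1.11) and BIRC5 (-1.18) downward. Among genes of lytic death, MLKL encodes the protein that opens the membrane in necroptosis. MLKL was at 24.7 and 23.2 TPM untreated and 9.36 and 8.79 TPM with digitonin (-1.31). The gasdermin gene DFNA5 (-1.04) and CASP8 (-0.94) also fell on each scaling, and NINJ1, which ruptures the membrane late in death, was at 17.1 and 16.1 TPM untreated and 24.2 and 25.5 TPM with digitonin (0.56). Of 13 tested genes of necroptosis and pyroptosis, 3 rose, 8 fell and 2 did not pass (5 up and 4 down with median centring, 5 and 7 with quantile normalization). Their median was -0.40, close to the -0.37 of all genes, of which 56.9% fell.

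Genes for mending the plasma membrane did not rise as a group. Of 15 genes of the ESCRT machinery, which sheds wounded membrane, 1 rose, 14 fell and 0 did not pass (3 up and 11 down with median centring, 2 and 12 with quantile normalization). VPS4A, the ATPase that takes the filament apart, was at 91.97 and 95.1 TPM untreated and 41.8 and 42.1 TPM with digitonin (-1.14), and CHMP6 at 13.04 and 14.7 TPM untreated and 6.62 and 5.36 TPM with digitonin (-1.09). CHMP1B was at 28.5 and 28.8 TPM untreated and 32.04 and 34.2 TPM with digitonin (0.202). The last was therefore the ESCRT gene that rose on the plain scale. Of 8 tested annexins and other repair genes, 2 rose, 6 fell and 0 did not pass (5 up and 1 down with median centring, 1 and 3 with quantile normalization). ANXA1 was at 626 and 619 TPM untreated and 793 and 827 TPM with digitonin (0.38), and ANXA7 (-0.88) fell.

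Cytoskeletal genes fell. ACTB, cytoplasmic beta-actin, was at 5252 and 5274 TPM untreated and 2068 and 2016 TPM with digitonin (-1.37), and the tropomyosin gene TPM4 at 619 and 609 TPM untreated and 291 and 317 TPM with digitonin (-1.01). Neither had overlapping groups. Of 11 actin and contractile genes, 1 rose, 10 fell and 0 did not pass (3 up and 6 down with median centring, 1 and 10 with quantile normalization), MYL9 (-0.899) and ACTN1 (-0.72) being further examples. SRF, the factor that controls many of them, rose slightly (0.33). YAP targets were split: CTGF, a matricellular protein, was at 7.57 and 7.13 TPM untreated and 58.3 and 60.2 TPM with digitonin (2.85), and ANKRD1 at 88.3 and 84.2 TPM untreated and 20.8 and 20.4 TPM with digitonin (-2.02). CYR61 (1.12) rose and AJUBA (-1.79) fell, and of these 8 genes, 4 rose, 3 fell and 1 did not pass (4 up and 3 down with median centring, 4 and 3 with quantile normalization).

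TGF-beta and BMP genes rose in this line, in which SMAD4, the common partner of their signals, was nearly absent. ID2, an inhibitor of differentiation factors and a BMP target, was at 0.109 and 0.372 TPM untreated and 20.6 and 22.8 TPM with digitonin (4.200), and ID3 at 3.92 and 5.0003 TPM untreated and 82.9 and 74.6 TPM with digitonin (3.87). The inhibitory SMAD7 was at 6.35 and 5.39 TPM untreated and 100.5 and 101 TPM with digitonin (3.89). All 3 were without overlap, as were 89.4% of all tested genes. ID2, under 1 TPM untreated, entered the test only through its treated libraries. The ligand BMP2 was at 9.27 and 8.7 TPM untreated and 72.95 and 74.7 TPM with digitonin (2.91), and BAMBI (2.88), TGIF1 (2.13) and SKIL (2.02) rose. Of 13 tested genes, 12 rose, 1 fell and 0 did not pass (12 up and 0 down with median centring, 12 and 0 with quantile normalization), and the median was 2.02.

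Among 10 tested hypoxia and angiogenesis genes, 8 rose, 1 fell and 1 did not pass (9 up and 0 down with median centring, 9 and 1 with quantile normalization). The vascular growth factor VEGFA was at 146 and 149 TPM untreated and 892 and 871 TPM with digitonin (2.57), and ADM, a vasodilator peptide, at 33.5 and 33.4 TPM untreated and 371 and 391 TPM with digitonin (3.47). Both were clear of the untreated range. Of 12 plasminogen and matrix proteases and their inhibitors, 4 rose, 5 fell and 3 did not pass (6 up and 3 down with median centring, 5 and 5 with quantile normalization). The stromelysin MMP10 was at 2.04 and 2.06 TPM untreated and 25.3 and 23.3 TPM with digitonin (3.05) and the tissue plasminogen activator gene PLAT at 132 and 130.2 TPM untreated and 76.7 and 74.5 TPM with digitonin (-0.78).

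**Figure D3:**
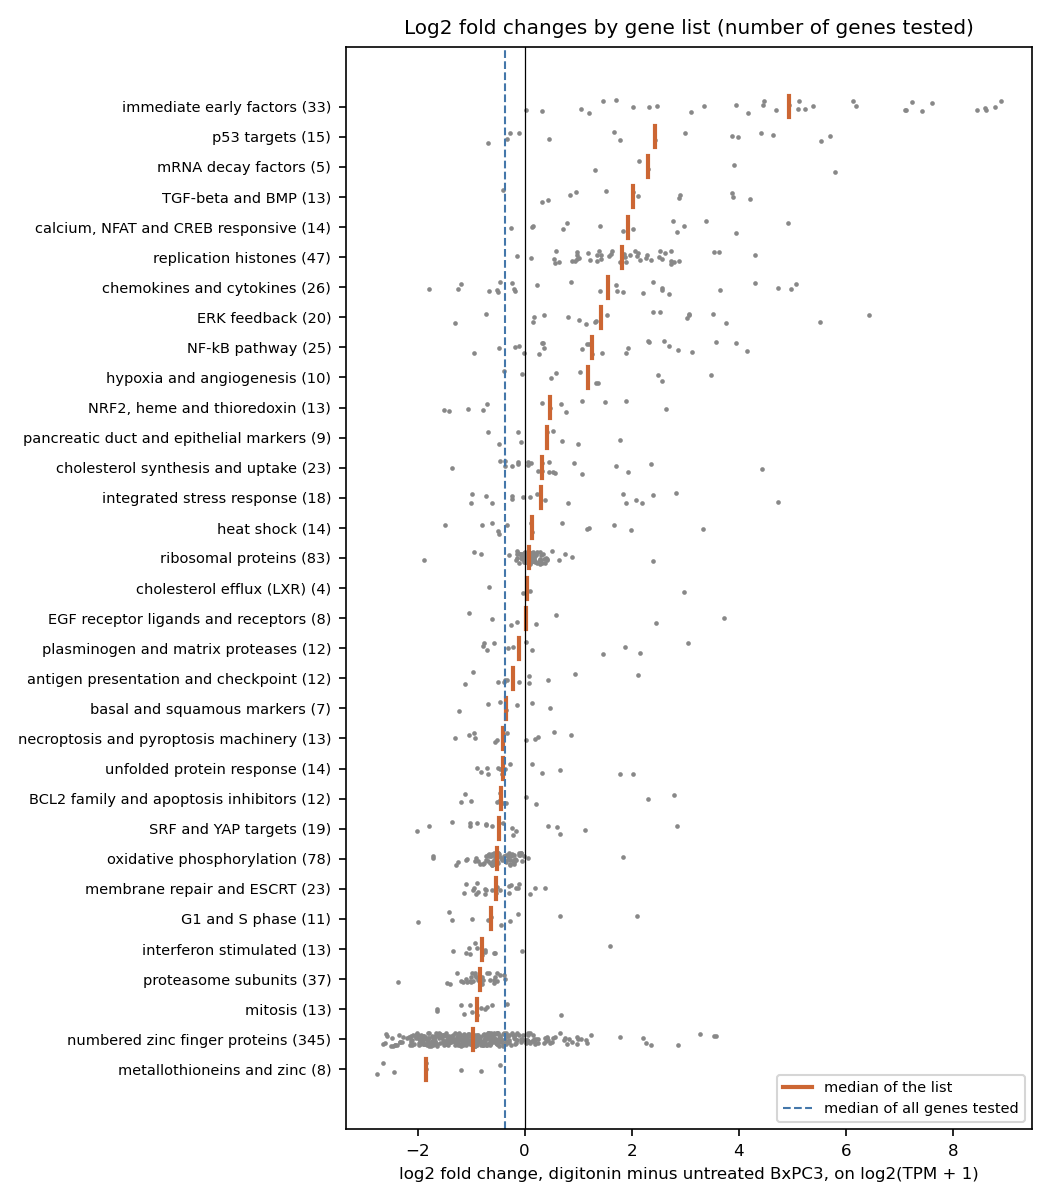
Log2 fold change (horizontal axis, on log2(TPM + 1)) of each tested gene, a dot, in each list (vertical axis, number of genes tested in parentheses), with lists of at least 4 tested genes shown. Orange bars are list medians, the dashed line is the median of all genes (-0.37) and the solid line is 0; immediate early factors lie highest and metallothioneins lowest.

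PRMT6, an arginine methyltransferase of histones, had the largest fall, small RNA rows aside, and was at 27.5 and 26.8 TPM untreated and 0.785 and 1.01 TPM with digitonin (-3.895, SE 0.0913, adjusted p = 9.63e-08). CSTF1, a subunit of the factor that cleaves messenger RNA before polyadenylation, was at 51.3 and 52.9 TPM untreated and 4.07 and 3.53 TPM with digitonin (-3.47), and SMG8 of nonsense-mediated decay at 14.4 and 14.02 TPM untreated and 0.743 and 0.545 TPM with digitonin (-3.21). In all 3 the treated libraries held a small fraction of the untreated level. Others among the 15 largest were MTERF1 (-3.44), MARS2 (-3.18) and FASTKD3 (-3.13) of mitochondrial gene expression, MAK16 (-3.21) of ribosome assembly, GEMIN5 (-3.100) of small nuclear RNP assembly, PUS3 (-3.08), a tRNA pseudouridine synthase, NSMCE3 (-3.12) of chromosome maintenance, CCNF (-3.19), a cyclin of a ubiquitin ligase, RNF219 (-3.08), a ubiquitin ligase, and C5orf51 (-3.18) and LOC101927746 (-3.48). GAGE7 (-3.55, adjusted p = 0.0335) is uncertain: it belongs to a family of near-identical copies and its treated libraries held 15.6 and 0.0239 TPM. HBA1 (6.27, to 105 and 106 TPM), an alpha-globin gene among the 15 largest rises, is nearly identical to HBA2 and is uncertain for the same reason.

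Whole gene families shifted by smaller amounts. Of 345 tested zinc finger genes with numbered ZNF names (of 465), mostly transcriptional repressors, 30 rose, 281 fell and 34 did not pass (63 up and 229 down with median centring, 53 and 256 with quantile normalization); their median was -0.97, and 103 fell at least 2-fold on all 3 scalings. ZNF12 was at 15.6 and 15.7 TPM untreated and 1.61 and 1.75 TPM with digitonin (-2.64). ZNF34 was at 2.95 and 3.64 TPM untreated and 46.96 and 52.7 TPM with digitonin (3.57), and ZNF296 (3.54) and ZNF217 (3.27) also rose, against the trend of the family. All 37 tested proteasome subunit genes fell, 31 after median centring and 34 after quantile normalization, with a median of -0.84. PSMD5, an assembly chaperone of the proteasome, was at 46.2 and 46.4 TPM untreated and 7.64 and 8.72 TPM with digitonin (-2.37), and the ATPase subunit PSMC2 (-1.46) fell too. Of 78 oxidative phosphorylation genes, 1 rose, 69 fell and 8 did not pass (24 up and 31 down with median centring, 3 and 63 with quantile normalization), so their direction relative to other genes depends on the scaling; UQCRFS1, the iron-sulfur subunit of complex III, was at 193 and 193 TPM untreated and 53.9 and 62.5 TPM with digitonin (-1.72). Ribosomal protein genes showed no direction that held across scalings: of 83 tested, 40 rose, 11 fell and 32 did not pass (80 up and 3 down with median centring, 15 and 44 with quantile normalization).

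Cell cycle genes of mitosis fell, except CDC20. CCNA2, cyclin A, was at 51.9 and 51.7 TPM untreated and 14.9 and 17.04 TPM with digitonin (-1.64), and the kinase gene AURKA at 88.02 and 90.8 TPM untreated and 28.1 and 28.1 TPM with digitonin (-1.64). CDC20, which activates the anaphase ubiquitin ligase, was at 178 and 191 TPM untreated and 297 and 293 TPM with digitonin (0.67). Of 13 genes, 1 rose, 12 fell and 0 did not pass (1 up and 11 down with median centring, 1 and 11 with quantile normalization). Among 11 genes of G1 and S phase, 2 rose, 8 fell and 1 did not pass (4 up and 6 down with median centring, 3 and 7 with quantile normalization). CCNE1, cyclin E, was at 26.3 and 27.2 TPM untreated and 118 and 118 TPM with digitonin (2.102), while CDC25A, a phosphatase that licenses S phase, was at 22.3 and 20.9 TPM untreated and 4.55 and 4.85 TPM with digitonin (-1.99) and cyclin D1, CCND1 (-1.42), fell.

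The share of rises and falls differed with the starting level. Of 814 tested genes with a mean under 1 TPM in untreated cells, 87.6% rose. Each needed at least 1 treated library at 1 TPM or more to enter the test, so the filter favours a rise. Of the 2863 genes between 1 and 5 TPM, 29.1% rose and 36.3% fell (median -0.07, or 0.35 with median centring). Of the 4326 genes between 5 and 20 TPM, 19.2% rose and 62.8% fell (median -0.48, or -0.06 centred), and of the 3934 between 20 and 100 TPM, 13.3% rose and 76.2% fell (median -0.62, or -0.197 centred). Of the 1011 between 100 and 500 TPM, 14.8% rose and 75.8% fell (median -0.53, or -0.100 centred). The 225 genes at 500 TPM or more had 30.7% up and 45.8% down (median -0.06, or 0.37 centred).

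HT29 cells given the same dose showed smaller changes. In HT29, 7384 of 12193 genes passed (60.6%; 16.5% rose and 44.0% fell, the median over all genes being -0.16), 964 of them at least 2-fold (7.91%, with 4.03% up and 3.88% down) against 4206 in BxPC3 (31.0%). Treated and untreated HT29 libraries correlated across genes at 0.967 to 0.969. The log2 fold changes of the 2 lines, which have separate untreated libraries, correlated at 0.631 over 11472 genes tested in both. The difference of the 2 responses, tested as an interaction, passed for 9220 of 14393 genes (64.1%): the log2 fold change was larger in BxPC3 for 2961 (20.6%) and smaller for 6259 (43.5%), while centring on the median gave 4371 (30.4%) and 4218 (29.3%) and quantile normalization 3718 (25.8%) and 5143 (35.7%). Differences of at least 2-fold numbered 1152 larger and 1499 smaller ones (10.4%).

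The 4 EGR genes were the largest differences between the lines. EGR1 in HT29 was at 11.96 and 12.1 TPM untreated and 83.7 and 83.6 TPM with digitonin, a log2 fold change of 2.697, and the difference between lines was 6.195 (SE 0.0425, limma interaction, adjusted p = 1.79e-08). EGR3 in HT29 was listed at 0 in both untreated libraries and reached only 0.88 and 0.697 TPM, and the difference, 7.96, was the largest of all. EGR2 (6.58) was second, EGR1 the third and EGR4 (5.96) the fourth. EGR2, EGR3 and EGR4 could not have entered the test without treated libraries, those of BxPC3 above all. The same holds for RRAD, C11orf96 and HBA2 below, so the values of all 6 are a description. RRAD, a relative of GEM, was at 0.502 and 1.03 TPM untreated and 125 and 116.1 TPM with digitonin in BxPC3 and stayed at 0.202 and 0.363 TPM in treated HT29, a difference of 5.88. DUSP2 was at 10.2 and 7.76 TPM untreated and 7.02 and 7.32 TPM treated in HT29, a difference of 5.797. The 8 largest also held C11orf96 (5.75) and HBA2 (5.31). Over the immediate early list the difference was larger in BxPC3 for 29 and smaller for 1 of 33 genes (30 and 1 with median centring, 29 and 2 with quantile normalization), with FOS (5.29), NR4A1 (5.28), JUN (2.29) and FOSB (2.895) among the former. KLF6 was close in the 2 lines, at 4.69 in BxPC3 and 4.51 in HT29 (difference 0.17, adjusted p = 0.0294, which did not pass with a replicate block or with any of 6 libraries left out).

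**Figure D4:**
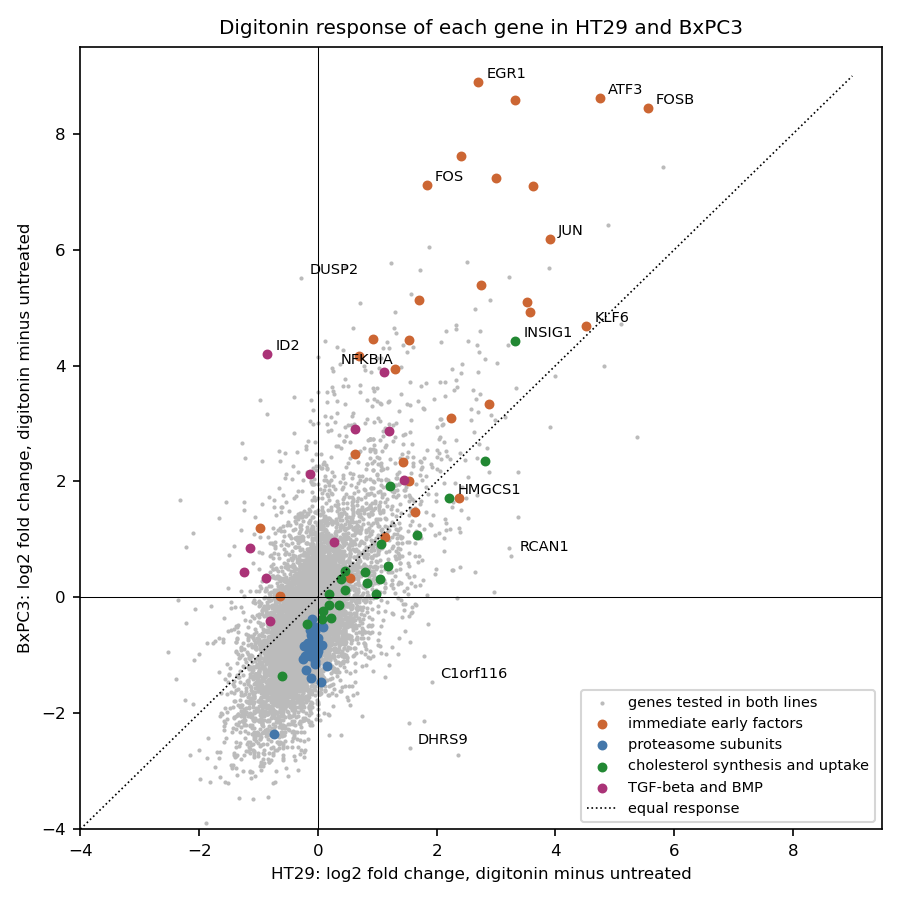
Log2 fold change of each gene tested in both lines, HT29 on the horizontal and BxPC3 on the vertical axis, on log2(TPM + 1). Coloured points are members of 4 lists and the dotted line marks equal responses; immediate early factors lie above that line, cholesterol genes around it or below it, and proteasome genes lie near 0 in HT29 and below 0 in BxPC3.

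NF-kB inhibitors and neutrophil chemokines also differed. NFKBIA was at 49.9 and 44.1 TPM untreated and 54.9 and 56.5 TPM with digitonin in HT29, so that the difference was 3.71 (SE 0.0851, adjusted p = 1.29e-06). CXCL8 in HT29 was at 7.39 and 7.87 and then 51.96 and 53.9 TPM, a difference of 2.33. CXCL2 (4.37), CXCL1 (3.16), SOD2 (3.01) and PTGS2 (3.63) were likewise larger in BxPC3. CCL20 was at 1.64 and 0.713 TPM untreated and 10.9 and 11.2 TPM treated in HT29, a difference of -0.78 (adjusted p = 0.0414) that did not pass after median centring, after quantile normalization, without the filter on low values or without any of 6 of the 8 libraries. For the NF-kB list the response was larger in BxPC3 for 18 and smaller for 3 of 25 genes (20 and 3 with median centring, 19 and 3 with quantile normalization). RCAN1 was at 4.43 and 3.83 TPM untreated and 49.2 and 46.3 TPM treated in HT29, a difference of -2.53 in the other direction, although PTGS2, PER1 and NFATC1 of the same list responded more in BxPC3.

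TGF-beta and BMP genes differed at each member: all 13 had the larger log2 fold change in BxPC3, on each scaling, with ID2 (5.06), ID3 (3.16) and SMAD7 (2.77) leading. ID2 was at 57.8 and 56.2 TPM untreated and 30.1 and 31.9 TPM treated in HT29. For sterol genes the response was larger in BxPC3 for 2 and smaller for 15 of 23 genes (4 and 10 with median centring, 5 and 11 with quantile normalization). Over all genes 20.6% were larger and 43.5% smaller (30.4% and 29.3% with median centring, 25.8% and 35.7% with quantile normalization). The median difference was -0.34, against -0.23 for all genes. HMGCS1 in HT29 was at 49.4 and 50.7 TPM untreated and 238 and 234 TPM with digitonin, a difference of -0.51 (adjusted p = 6.47e-04), whereas INSIG1 responded more in BxPC3 (1.11). CDKN1A responded more in HT29, from 3.64 and 3.18 to 128 and 120.0 TPM, a difference of -0.83, and MDM2 more in BxPC3 (difference 3.08, with a log2 fold change of -0.08 in HT29). Of interferon genes in HT29, 7 of 13 rose and 1 fell, against 16.5% and 44.0% of all genes, and the interaction was larger in BxPC3 for 1 and smaller for 12 of 14 genes (1 and 11 with median centring, 1 and 11 with quantile normalization). OAS2 differed by -1.54 and MX1 by -1.92.

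Proteasome genes were at a median log2 fold change of -0.09 in HT29, against -0.16 for all genes; 1 rose and 14 fell of 36, near the 44.0% of all genes that fell there, and the response was larger in BxPC3 for 0 and smaller for 36 of 37 genes (0 and 33 with median centring, 0 and 32 with quantile normalization). Of 23 membrane repair genes, the response was larger in BxPC3 for 0 and smaller for 22. Median centring gave 0 and 15, and quantile normalization 0 and 18. In HT29 itself 9 of the 23 rose and 7 fell, against 16.5% and 44.0% of all genes. Metallothionein and zinc genes, 2 of which fell and 1 of which rose among 7 tested in HT29, had a response larger in BxPC3 for 0 and smaller for 8 of 8 genes (0 and 7 with median centring, 0 and 7 with quantile normalization), with MT1X (-2.01) and MT1E (-1.84) as examples. Of 13 mitotic genes, 12 fell in BxPC3, where CDC20 rose, and 13 fell in HT29, where 44.0% of all genes fell. The difference between lines for these genes did not hold 1 direction across scalings. DHRS9, a retinol dehydrogenase, moved in opposite directions: in BxPC3 it was at 448 and 425 TPM untreated and 71.05 and 70.8 TPM with digitonin (-2.603) and in HT29 at 39.9 and 46.1 TPM untreated and 129.7 and 124 TPM treated (1.54), a difference of -4.15 (SE 0.0956, adjusted p = 1.30e-06). C1orf116 did so as well, at 73.7 and 74.2 TPM untreated and 26.4 and 26.2 TPM with digitonin (-1.46) against 19.7 and 17.7 and 74.5 and 71.9 TPM in HT29 (1.92), a difference of -3.37. CLMP (-3.03), an adhesion molecule, and RGS4 (-2.91), a regulator of G-protein signals, fell in BxPC3. Both were under 1 TPM in every HT29 library, and the difference was -2.97 for each.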

How the data were processed

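Gene-level TPM were made by the authors with Salmon and the build hg19, as named in the submitters' processing notes; which version and index they used is not given in the sources used here. The unit of the deposited values was taken from their totals, which were nearly the same in every BxPC3 library (999999 at the lowest). TPM keeps no depth, so no count test was possible and precision rests on n = 2 libraries per group.

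The 8 human libraries (BxPC3 and HT29, digitonin and untreated) were fitted together with 4 group means by limma's trend method (limma 3.58.1, R 4.3.3, data.table in version 1.17.8) on values of log2(TPM + 1) and no replicate block. Genes with at least 1 TPM in 2 libraries of the comparison were tested (for the interaction, in 2 of 8 libraries), and p-values were adjusted by Benjamini and Hochberg over all of them (threshold 0.05). HT29 was given as its own contrast and by the interaction. The model was tested on simulated data in which few genes changed, unlike these data, so that test does not bear on the scaling. The members and gene lists were chosen with earlier results of these data known, so no list is independent support. Named were the 15 largest rises and falls among genes without overlap and with a mean of at least 5 TPM in the higher group, the 8 largest differences each way between lines, members of each list by the size of their change or where needed to account for it, and a fixed set of 27 genes; some of these are not reported here. Human gene positions and sequences were not used here. Alternatives were median centring, quantile normalization, a pseudocount of 0.1, no filter, removal of 733 small RNA and ribosomal RNA rows, a replicate block, only the BxPC3 libraries, leaving out each library, and limma treat. Lists with no tested member (islet markers, mitochondrially encoded genes) were not analysed here. Tables and figures used Python 3.11.15, pandas 2.3.3, numpy 2.4.6 and matplotlib 3.10.9.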

Additional observations from a re-analysis of the deposited data

Results flagged for a closer look

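The results here were picked out because the digitonin response of BxPC3 differed from that of HT29 by the interaction test (limma, adjusted p under 0.05). The interaction passed for 9220 genes. The largest differences, taken as 8 each way, were EGR3 (7.96), EGR2 (6.58), EGR1 (6.195), EGR4 (5.96), RRAD (5.88), DUSP2 (5.797), C11orf96 (5.75) and HBA2 (5.31) with a larger response in BxPC3, and DHRS9 (-4.15), TNFAIP8L2-SCNM1 (-3.68), C1orf116 (-3.37), CLMP (-2.97) and RGS4 (-2.97) with a smaller one, each as the log2 fold change in BxPC3 minus that in HT29. Of the 8 smaller ones, 3 are not described: 2 carry no gene symbol and 1 has near-identical copies. TNFAIP8L2-SCNM1 is a readthrough transcript whose treated BxPC3 libraries held 0.000935 and 3.1 TPM, and HBA2 is nearly identical to HBA1, so both are uncertain. EGR2, EGR3, EGR4, RRAD, C11orf96 and HBA2 could not have entered the test without treated libraries. This favours a difference, so their values are a description. Among the genes followed throughout, 3 moved in opposite directions in the 2 lines. DUSP6 rose in BxPC3 (1.15) and fell in HT29 (-0.297), a difference of 1.44. HMOX1 rose in BxPC3 (1.495) and fell in HT29 (-0.48), a difference of 1.98. TXNIP fell in BxPC3 (-1.42) and rose in HT29 (0.38), a difference of -1.797.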

How the results depend on the processing

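The counts of genes in each direction moved with the scaling: the median change over all genes, in log2, was -0.37 as deposited, 0.06 after median centring and -0.12 after quantile normalization. Median centring gave 5606 higher and 5001 lower genes in BxPC3, of which 2152 and 1278 by at least 2-fold (1404 and 2802 without centring), and 810 genes with an at least 2-fold smaller response than in HT29 (1499 without). A test for changes beyond 1.5-fold (limma treat) left 5611 genes, 1638 higher and 3973 lower. The filter asks for 1 TPM in 2 libraries. Leaving out a digitonin library therefore removed from the test every gene under 1 TPM in both untreated libraries. Of the 814 genes with an untreated mean under 1 TPM, 55.7% were at least 2-fold higher with all libraries. The counts of rises below are thus lower without a digitonin library in part through the filter. Leaving out each of the 4 BxPC3 libraries in turn gave 9799 to 9932 genes, 926 to 1397 of them at least 2-fold higher, the lowest without digitonin replicate 2; with a lone library in a group, it is assumed to vary like the others. The interaction then gave 8180 to 8610 genes over the 8 libraries.

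Same-numbered libraries did not deviate together (correlation of replicate differences with those of the treated group, 0.025 in BxPC3 and 0.0098 in HT29), so they share only a number. With a replicate block 10765 genes passed in BxPC3 and 8657 in the interaction. The replicate block with median centring gave 5475 higher, 4864 lower, 2155 and 1292 by at least 2-fold, and in the interaction 3877 genes with a smaller response in BxPC3, 827 by at least 2-fold. The other alternatives (a pseudocount of 0.1, no filter, small RNA rows removed, only BxPC3 libraries) kept each of these counts within 1.5 times. Of the 204 named genes checked 1 by 1 in BxPC3, none changed direction under any alternative in which it was tested. CCL5, CXCL16, CXCL5, ZMAT3 and GAGE7 failed to pass under at least 1. Genes under 1 TPM in both untreated libraries, such as EGR3 and ARC, could not be checked with a treated library left out. The log2 fold change of GAGE7 was -1.54 without digitonin replicate 2, and -3.74 and -3.36 without either untreated replicate. HSPA5, CALR, HSP90B1, EGFR and ERBB2, described above as depending on the scaling, were not among the genes checked. Depth is unknown, so counting error cannot be given.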

Other observations

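Several genes outside the lists went from under 1 TPM to 10 TPM or more in BxPC3. In all, 57 genes were under 1 TPM in both untreated libraries and at 10 TPM or more in both treated ones, against 2 in HT29, of which 1 was shared. The reverse, from 10 TPM or more to under 1 TPM, held for 5 genes in BxPC3 and 0 in HT29 (small RNA rows left out). The genes named here were chosen after their values were seen and by this contrast, so no test is given. SNAI1, a repressor of E-cadherin, was at 0.845 and 0.575 TPM untreated and 88.99 and 81.4 TPM with digitonin (5.66), with HT29 at 3.39 and 4.32 and 14.01 and 15.7 TPM. LAG3, an immune checkpoint receptor usually found on lymphocytes, was at 0.142 and 0.207 TPM untreated and 44.8 and 44.3 TPM with digitonin (5.28) while the T cell gene CD3E was at 1.41 and 1.37 and then 1.03 and 0.609 TPM. The homeobox gene DLX2 was at 0.635 and 0.588 TPM untreated and 61.1 and 58.7 TPM with digitonin (5.24). In these 3 the groups did not overlap, as the choice required. The muscle ubiquitin ligase FBXO32 (4.24), the kinase inhibitor CDKN1C (4.303) and the Notch ligand DLL4 (3.95) followed the same pattern.

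Genes of replication-dependent histones, whose messages normally lack a poly(A) tail, rose in the poly(A)-selected libraries. Of 47 tested (of 66 listed), 38 rose, 0 fell and 9 did not pass (44 up and 0 down with median centring, 41 and 0 with quantile normalization), with a median of 1.81, but 17 were under 1 TPM in both untreated libraries. HIST1H2BE was at 0.489 and 0 TPM untreated and 22.97 and 22.95 TPM with digitonin (4.296) and HIST1H2BJ at 2.74 and 2.87 TPM untreated and 24.3 and 26.1 TPM with digitonin (2.78). In HT29, 21 of 36 rose and 0 fell (all genes, 16.5% and 44.0%), and the response was larger in BxPC3 for 20 and smaller for 1 of 53 genes (21 and 0 with median centring, 21 and 0 with quantile normalization). Several histone genes are near-identical, so single values are uncertain.

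Among rows with symbols of antisense, intronic or otherwise uncharacterized transcripts (AS, IT, OT, DT, LINC or LOC), 291 of 689 tested rose (42.2%) and 161 fell (23.4%), against 23.7% and 56.9% of all genes, with a median log2 fold change of 0.23, against -0.37 for all genes. Of the 689, 142 were under 1 TPM in both untreated libraries and so entered the test through the treated ones. Of the other 547, 157 rose and 161 fell, with a median of 0.02. Among all tested genes between 1 and 5 TPM untreated, 29.1% rose and 36.3% fell, with a median of -0.07. The rows were not matched to other genes by level, so class and starting level were not separated. Strand use in the counting is not given in the sources used here, so reads of a gene and its antisense partner cannot be told apart.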
